A study of Homo sapiens with 9 samples.

Results

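The 38 genes described here act from mitotic entry to cytokinesis: the mitotic cyclins and their kinase, the spindle assembly checkpoint, the kinetochore and centromere, the spindle, the cleavage furrow and the mitotic chromosome. They were taken by symbol from a list of 38 names, drawn up by function with earlier results of these data known, out of 21619 genes in each count table. All 38 were found and all 38 passed the filter on low counts. The lowest count of a member in any library was 106, for HMMR, so no member was near the detection limit.

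The study asked how added mesenchymal stem cells (MSC) relate to the RNA that cancer cells translate inside a tumour. MDA-MB-231, an established human triple-negative breast cancer line of mesenchymal character, carried the ribosomal protein L10a fused to EGFP, and these cells went into the mammary fat pad of mice either alone or at a 1:1 ratio with MSC from human bone marrow. Whole tumours were taken after 3 weeks, 5 with MSC (tumours 1, 6, 7, 10 and 15) and 4 without (tumours 9, 11, 12 and 13), each from a different mouse. Tagged polysomes were pulled down with an antibody to GFP (translating ribosome affinity purification, TRAP) and their poly(A) RNA was sequenced. By the labels, the cancer cells carried the tag in both groups. Both MSC and cancer cells are human, so RNA of MSC carried over in the pull-down would be counted with that of the cancer cells. The sources used here do not give the strain of the mice, the donor of the MSC or whether the tagged line was 1 clone.

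Entry into mitosis needs CDK1 bound to a cyclin, first cyclin A and then cyclin B. The spindle checkpoint holds CDC20, the activator of the anaphase promoting complex, until every kinetochore is attached to microtubules. Then cyclin B and securin are degraded, the chromatids part and the cell divides. Most of these genes are transcribed together late in the cell cycle, through the DREAM and MuvB complexes with B-MYB and FOXM1, which act at the CHR element, and through NF-Y, which binds the CCAAT box. RNA of these genes is therefore widely read as a mark of cycling cells in tumours.

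Mitotic RNA on tagged ribosomes was lower in tumours grown with MSC, by modest amounts. With edgeR's quasi-likelihood test and Benjamini-Hochberg adjustment over all genes, 12 of the 38 members were lower with MSC: CCNA2, CDK1, BUB1, BUB1B, BUB3, TTK, MAD2L1, PTTG1, CENPA, AURKA, NUSAP1 and ANLN. Among all 13458 genes tested 484 were lower (3.60%) and 563 were higher (4.18%). No member was higher, at an adjusted or at an unadjusted p under 0.05, and DESeq2 and limma-voom also called 0. The log2 change (with MSC minus without) was negative for 36 members, against 6575 of all genes tested (48.9%), and the median change was -0.35, against 0.01 over all genes. In 7 members every tumour with MSC lay below every tumour without (BUB1, BUB3, PTTG1, CENPA, AURKA, NUSAP1 and ANLN), as in 655 of all genes tested (4.87%). The members together took 0.428 to 0.534% of a library's gene counts without MSC and 0.343 to 0.399% with MSC, and these ranges did not overlap. In bulk samples, fewer cells in mitosis and less RNA per cell cannot be told apart, and without total RNA neither can RNA abundance and ribosome association.

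The result rested in part on tumour 12, a tumour without MSC with the smallest library (24616792 gene counts of 24616792 to 65275226). Tumour 12 was the highest of the 9 tumours for 24 of the 38 members (63.2%), against 20.5% of all genes tested. Without tumour 12, edgeR called 3 members lower, CCNA2, MAD2L1 and CENPA, against 94 of 13632 genes tested (0.690%). At an unadjusted p under 0.05, 21 members were lower in that fit, against 1097 of the 13458 genes tested on all 9 tumours. The direction was negative for 37 of 38 in that fit and the median change was -0.29. The change shrank in 30 members, grew in 7 and changed sign in INCENP, while the median SE went from 0.118 to 0.127. Tumour 15, with MSC, was the lowest of the 9 for 18 of the 38 members, against 14.3% of all genes tested. Without tumours 12 and 15 together, edgeR called 0 members, against 101 of 13517 genes lower (0.747%), and the median was -0.25. At an unadjusted p under 0.05, 16 members were lower in that fit, against 1004 of the 13458 genes tested on all 9 tumours. Other tools were not run without these tumours.

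Leaving out a tumour of the same groups other than 12 also moved the count of members called. It was 3 without tumour 9 (CCNA2, MAD2L1 and PTTG1), 5 without tumour 10 and 20 without tumour 13. The share of all genes called lower moved with it, to 1.02%, 1.44% and 6.40%. Without tumour 1, 6, 7, 11 or 15 the count was 8 to 13, with 1.44 to 2.48% of all genes lower. CCNA2 and MAD2L1 were called in all 9 of these fits, PTTG1 and CENPA in 8, BUB1 in 7, and CDK1, AURKA and NUSAP1 in 6. BUB3 was called in 4, TTK and ANLN in 2 and BUB1B in 1. On the same 9 tumours, DESeq2 called 17 members (5.87% of all genes were lower), limma-voom with quality weights 11 (2.18%) and edgeR after a correction for GC content and transcript length 7 (3.67%), which were CCNA2, BUB1, MAD2L1, PTTG1, CENPA, AURKA and CENPE. Across 19 fits, 35 members had a negative change in every fit. The exceptions were CDC20, INCENP and SMC2.

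**Figure D1:**
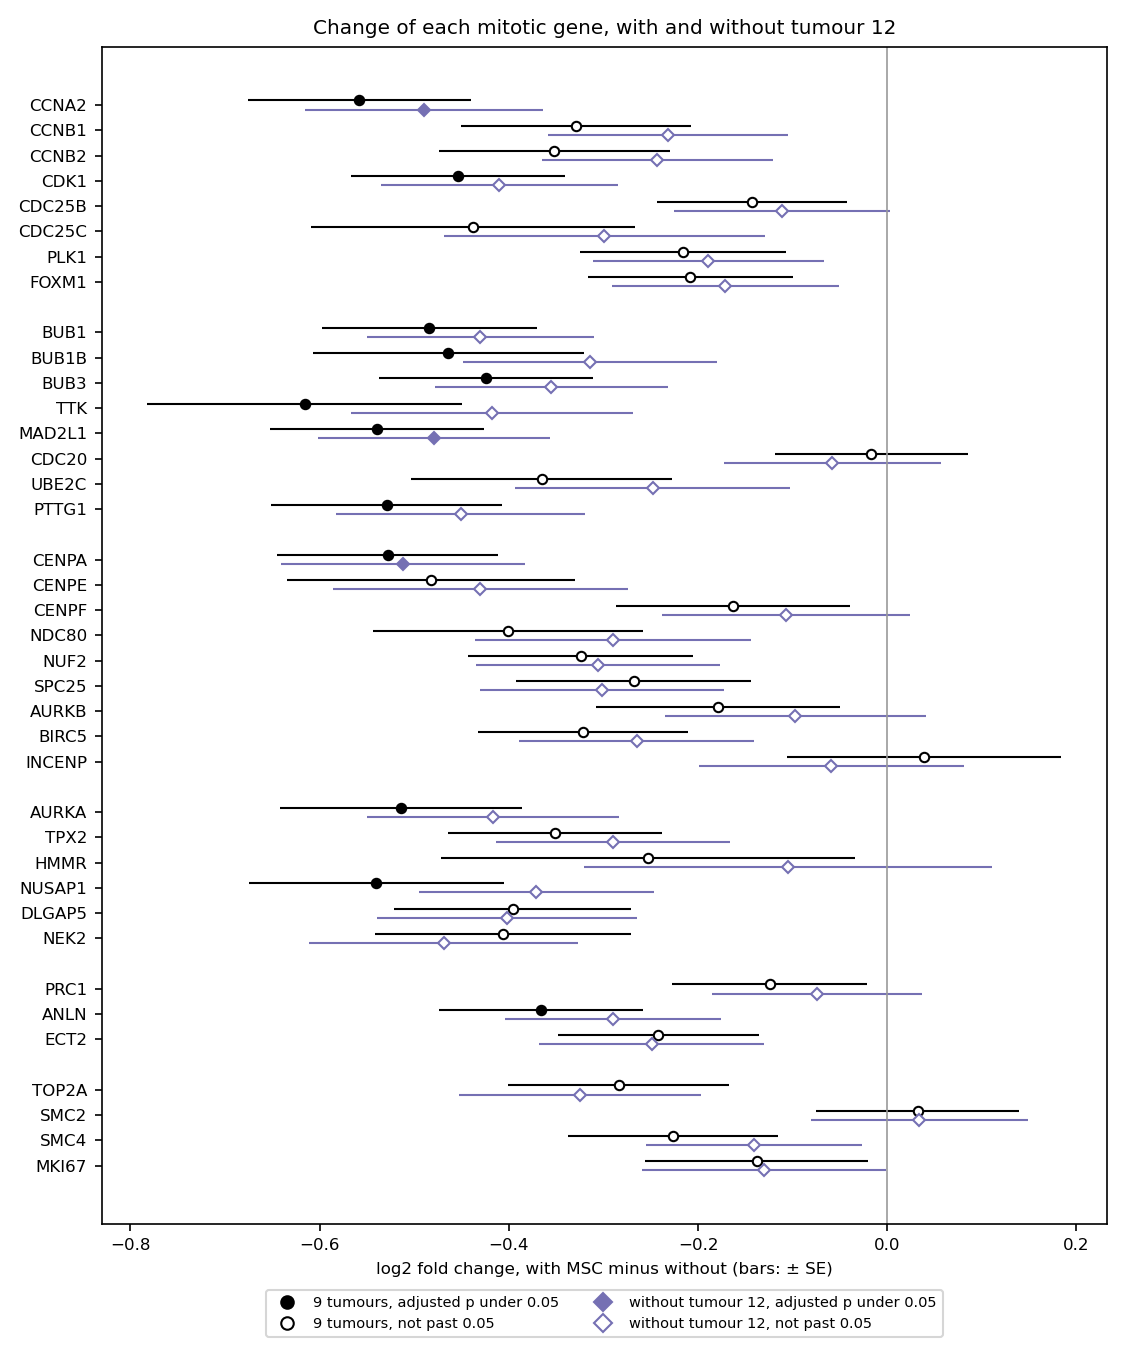
Log2 fold change of each of the 38 members, with MSC minus without, with bars of 1 SE; circles are the fit to all 9 tumours, diamonds the fit without tumour 12, and filled symbols have an adjusted p under 0.05. The 12 filled circles lie between -0.62 and -0.37, and 3 diamonds, those of CCNA2, MAD2L1 and CENPA, are filled.

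The promoters of these genes are shown because 36 members had changes of 1 sign and late cell cycle genes are known for these elements. Windows from 250 bases before to 50 bases after a RefSeq transcript start (GRCh38.p14) were at hand for 31 of the 38 members, 43 windows in all. The CHR letters TTTGAA or TTCGAA, on either strand, stood in 28 of the 43 windows (65.1%), against 16.4% of all 35116 windows in the table. Within 50 bases of the start the shares were 53.5% and 5.01%. CCAAT, on either strand, stood in 29 windows (67.4%, against 34.6%), at least 2 copies in 19 (44.2%, against 10.8%), and both motifs in 21 (48.8%, against 6.38%). Matches on opposite strands that overlap, as in HMMR and PTTG1, were counted singly, and windows of 1 gene can overlap, as in CDK1. These are matches of letters and not measured binding.

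The promoters of 5 members, from 140 bases before the start to 30 after it, show the arrangement, with CHR and CCAAT letters (or their reverse complement) in capitals, on the strand of the gene. CCNB2 is the textbook case of evenly spaced CCAAT boxes before a CHR, BUB1, CENPA and MAD2L1 are members that fell, and CDC20 carries the same letters and did not pass the test.
CCNB2 (chr15:59105006-59105175, plus strand): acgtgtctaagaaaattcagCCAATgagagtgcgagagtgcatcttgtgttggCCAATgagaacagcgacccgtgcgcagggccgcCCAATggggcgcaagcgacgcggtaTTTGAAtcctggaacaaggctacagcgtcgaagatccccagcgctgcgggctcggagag
BUB1 (chr2:110678034-110678203, minus strand): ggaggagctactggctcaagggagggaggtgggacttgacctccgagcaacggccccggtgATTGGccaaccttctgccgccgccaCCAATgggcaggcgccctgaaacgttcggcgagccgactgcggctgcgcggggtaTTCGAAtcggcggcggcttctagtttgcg
CENPA (chr2:26785916-26786085, plus strand): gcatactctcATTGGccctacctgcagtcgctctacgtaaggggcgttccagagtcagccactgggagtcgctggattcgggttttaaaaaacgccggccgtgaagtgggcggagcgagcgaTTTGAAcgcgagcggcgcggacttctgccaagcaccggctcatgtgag
MAD2L1 (chr4:120066819-120066988, minus strand): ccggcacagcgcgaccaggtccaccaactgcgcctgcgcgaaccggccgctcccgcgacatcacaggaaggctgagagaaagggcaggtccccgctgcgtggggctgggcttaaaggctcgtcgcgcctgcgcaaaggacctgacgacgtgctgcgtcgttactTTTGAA
CDC20 (chr1:43358841-43359010, plus strand): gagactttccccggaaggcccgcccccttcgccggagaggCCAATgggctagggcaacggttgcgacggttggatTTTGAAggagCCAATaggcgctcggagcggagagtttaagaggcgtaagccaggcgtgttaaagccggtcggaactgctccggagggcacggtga

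Positions are given for the stretches shown, and the full windows of CCNB2, CENPA, MAD2L1 and CDC20 held further matches before these stretches. In CCNB2 the CCAAT letters began at positions -120, -87 and -54 from the start and TTTGAA at -29. BUB1 had CCAAT letters at -79 and -54 and TTCGAA at 2 (the start being base 1), and CENPA had them at -130 with TTTGAA at -18. MAD2L1 had no CCAAT in the stretch shown and TTTGAA at 25. CDC20 had CCAAT letters at -100 and -55, on either side of TTTGAA at -65. CHR letters stood in 7 of the 9 called members with a window and in 18 of the 22 members not called, and CCAAT in 7 and 17.

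**Figure D2:**
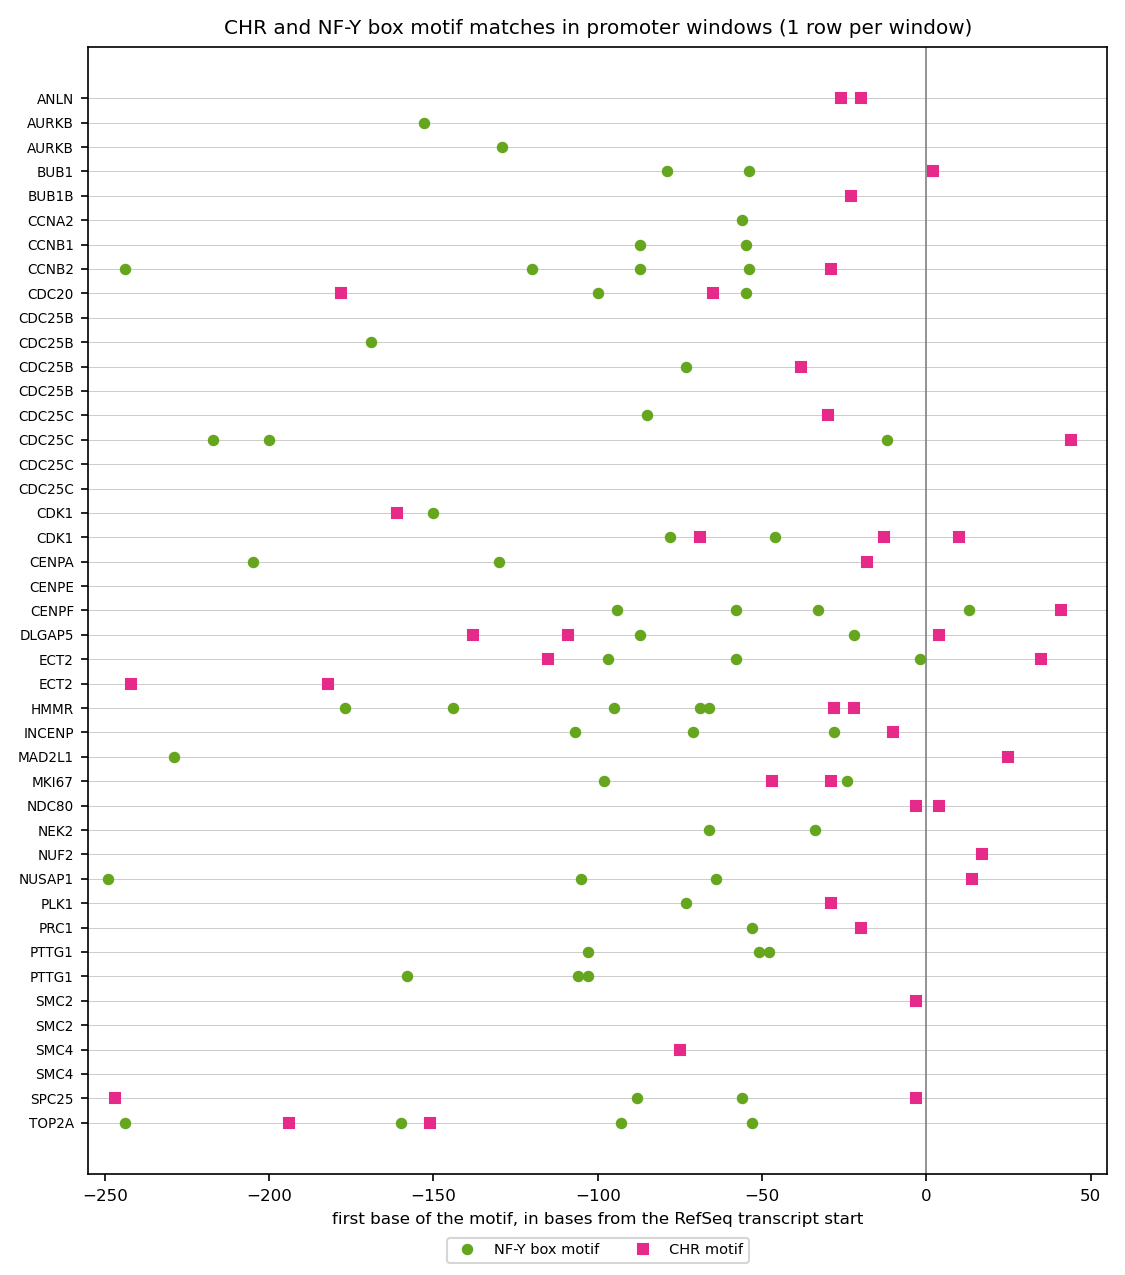
Position of each CHR match (squares) and each NF-Y box match (circles), in bases from the RefSeq transcript start, in the 43 promoter windows of 31 members, 1 row per window. CHR matches gather near the start, 23 of the 43 windows having 1 within 50 bases of it, and the NF-Y box matches lie mostly before the start.

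Of the 8 cyclin, CDK1 and mitotic entry genes, CCNA2 and CDK1 fell and 6 did not pass. Counts below are in CPM, scaled to a common library size, given for tumours 9, 11, 12 and 13 without MSC and then for tumours 1, 6, 7, 10 and 15 with MSC. CCNA2, cyclin A2, the partner of CDK2 in S phase and of CDK1 in G2, was at 188, 162, 192 and 128 CPM without MSC and at 108, 119.9, 128, 109 and 103 CPM with MSC. The tumours without MSC were higher, except that tumour 13 lay level with the highest tumour with MSC. CCNA2 changed by -0.56 ± 0.12 on the log2 scale (edgeR adjusted p = 0.00865), and by -0.49 without tumour 12 (adjusted p = 0.0482). CDK1, the kinase that drives mitotic entry, was at 201, 190.1, 208 and 159.9 CPM without MSC and at 145, 145, 162, 124 and 117 CPM with MSC. Tumour 7 reached just above tumour 13, and tumours 10 and 15 were the lowest. Its log2 change was -0.45 ± 0.11 (edgeR adjusted p = 0.0208), and -0.41 without tumour 12, where the call was lost (adjusted p = 0.0907).

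The B-type cyclins, which carry CDK1 through mitosis, did not pass. CCNB1 was at 157, 130.1, 185 and 143 CPM without MSC and at 148, 122, 131, 104 and 105 CPM with MSC, so that tumour 1 with MSC lay above tumours 11 and 13. CCNB2 was at 69.5, 65.97, 91.9 and 71.95 CPM without and 67.6, 61.1, 61.7, 55.97 and 46.7 CPM with MSC, and tumour 12 stood above the rest. Their log2 changes were -0.33 ± 0.12 and -0.35 ± 0.12 (edgeR adjusted p = 0.1004 and 0.0774). The phosphatases that release CDK1 from inhibition, CDC25B and CDC25C, had log2 changes of -0.14 ± 0.10 and -0.44 ± 0.17, with edgeR adjusted p = 0.399 and 0.116. For the mitotic kinase PLK1 the change was -0.22 ± 0.11 and for FOXM1, the transcription factor of late cell cycle genes, -0.21 ± 0.11 (adjusted p = 0.227 and 0.240). Within this group the ratio of CCNA2 to CDK1 was 0.876 ± 0.0628 (SD, n = 4) without MSC and 0.824 ± 0.0560 (n = 5) with MSC, and the groups overlapped.

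Of the 8 spindle checkpoint and anaphase genes, 6 fell (the median log2 change was -0.47, and -0.39 without tumour 12, where 1 was called). All 5 checkpoint components among them fell. MAD2L1 (MAD2), which binds CDC20 and holds it inactive, was at 159, 157, 169 and 114 CPM without MSC and at 101, 114, 105, 100.2 and 94.1 CPM with MSC. Tumours 9, 11 and 12 lay well above all those with MSC, and tumour 13 was level with tumour 6. MAD2L1 changed by -0.54 ± 0.11 (edgeR adjusted p = 0.00865) and by -0.48 without tumour 12 (adjusted p = 0.0482). BUB1, the kinetochore kinase that recruits checkpoint proteins, was at 53.04, 44.98, 54.97 and 43.2 CPM without and 38.3, 36.8, 29.8, 35.96 and 34.5 CPM with MSC, without overlap. BUB3, the adaptor that brings BUB1 and BUB1B to the kinetochore, was at 448, 429, 496 and 356 CPM without and 320.4, 349, 353, 298 and 291 CPM with MSC, where tumour 13 lay just above tumour 7. Their changes were -0.48 ± 0.11 and -0.42 ± 0.11 (edgeR adjusted p = 0.0162 and 0.0274). Without tumour 12 they were -0.43 and -0.35, and neither passed (adjusted p = 0.0667 and 0.133).

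The pattern of TTK and BUB1B was more uneven. TTK (MPS1), the kinase that starts checkpoint signalling, was at 46.9, 47.6, 68.3 and 32.7 CPM without MSC and at 34.8, 31.7, 38.9, 27.8 and 25.96 CPM with MSC. Tumour 12 stood far above the other tumours, and tumour 13 lay among those with MSC. TTK had the most negative log2 change of the members, -0.62 ± 0.17 (edgeR adjusted p = 0.0308), and -0.42 without tumour 12 (adjusted p = 0.141). BUB1B (BUBR1), part of the complex that inhibits CDC20, was at 34.005, 37.6, 47.6 and 26.1 CPM without and 26.5, 26.3, 29.5, 22.6 and 26.4 CPM with MSC. Again tumour 12 was highest and tumour 13 lay within the range of the tumours with MSC. Its change of -0.46 ± 0.14 passed only just (edgeR adjusted p = 0.04998), and was -0.31 without tumour 12 (adjusted p = 0.222).

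CDC20, which the checkpoint restrains, did not follow its inhibitors. It was at 113, 137, 109 and 114 CPM without MSC and at 121, 121, 126, 104 and 112 CPM with MSC, with the groups fully mixed, a log2 change of -0.02 ± 0.10 (edgeR adjusted p = 0.940). After the GC and length correction the change of CDC20 was -0.14 (edgeR adjusted p = 0.351). Those of MAD2L1, BUB3 and BUB1B were then -0.53, -0.45 and -0.44. The transcript of CDC20 has 57.9% GC, and those of MAD2L1, BUB3 and BUB1B have 39.4%, 41.4% and 43.2%. The ratio of MAD2L1 to CDC20 was 1.41, 1.15, 1.55 and 1.00 in the tumours without MSC and 0.839, 0.947, 0.832, 0.964 and 0.843 in those with MSC, all below the lowest without MSC. The mean ratio was 1.28 ± 0.250 (SD, n = 4) against 0.885 ± 0.0646 (n = 5). BUB3 to CDC20 averaged 3.70 ± 0.693 and 2.76 ± 0.128 without and with MSC. BUB1B to CDC20 averaged 0.310 ± 0.0890 and 0.225 ± 0.00890, and there the groups overlapped, with tumour 13 at 0.229 and tumours 7 and 15 at 0.233 and 0.236. These pairs were chosen after their values were seen and carry no test, and their CPM were not corrected for GC content.

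At anaphase, PTTG1 (securin), the inhibitor of separase, was at 339, 370.1, 414 and 295 CPM without MSC and at 248, 275, 285, 215 and 205 CPM with MSC. The groups did not overlap, though tumour 13 was close to tumours 6 and 7. It changed by -0.53 ± 0.12 (edgeR adjusted p = 0.0143), and by -0.45 without tumour 12 (adjusted p = 0.0796). PTTG1 has near-identical copies elsewhere in the genome, and the sources used here do not say how shared reads were counted. UBE2C, the ubiquitin-conjugating enzyme of the anaphase promoting complex, was at 499, 576, 676 and 426 CPM without and 468, 451, 473, 400.3 and 319 CPM with MSC, with a change of -0.36 ± 0.14 that did not pass (edgeR adjusted p = 0.105). Per kilobase of transcript, UBE2C and PTTG1 were the most abundant members without MSC, at 595 and 331 CPM per kb, and HMMR and CENPE the least, at 1.71 and 1.86.

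**Figure D3:**
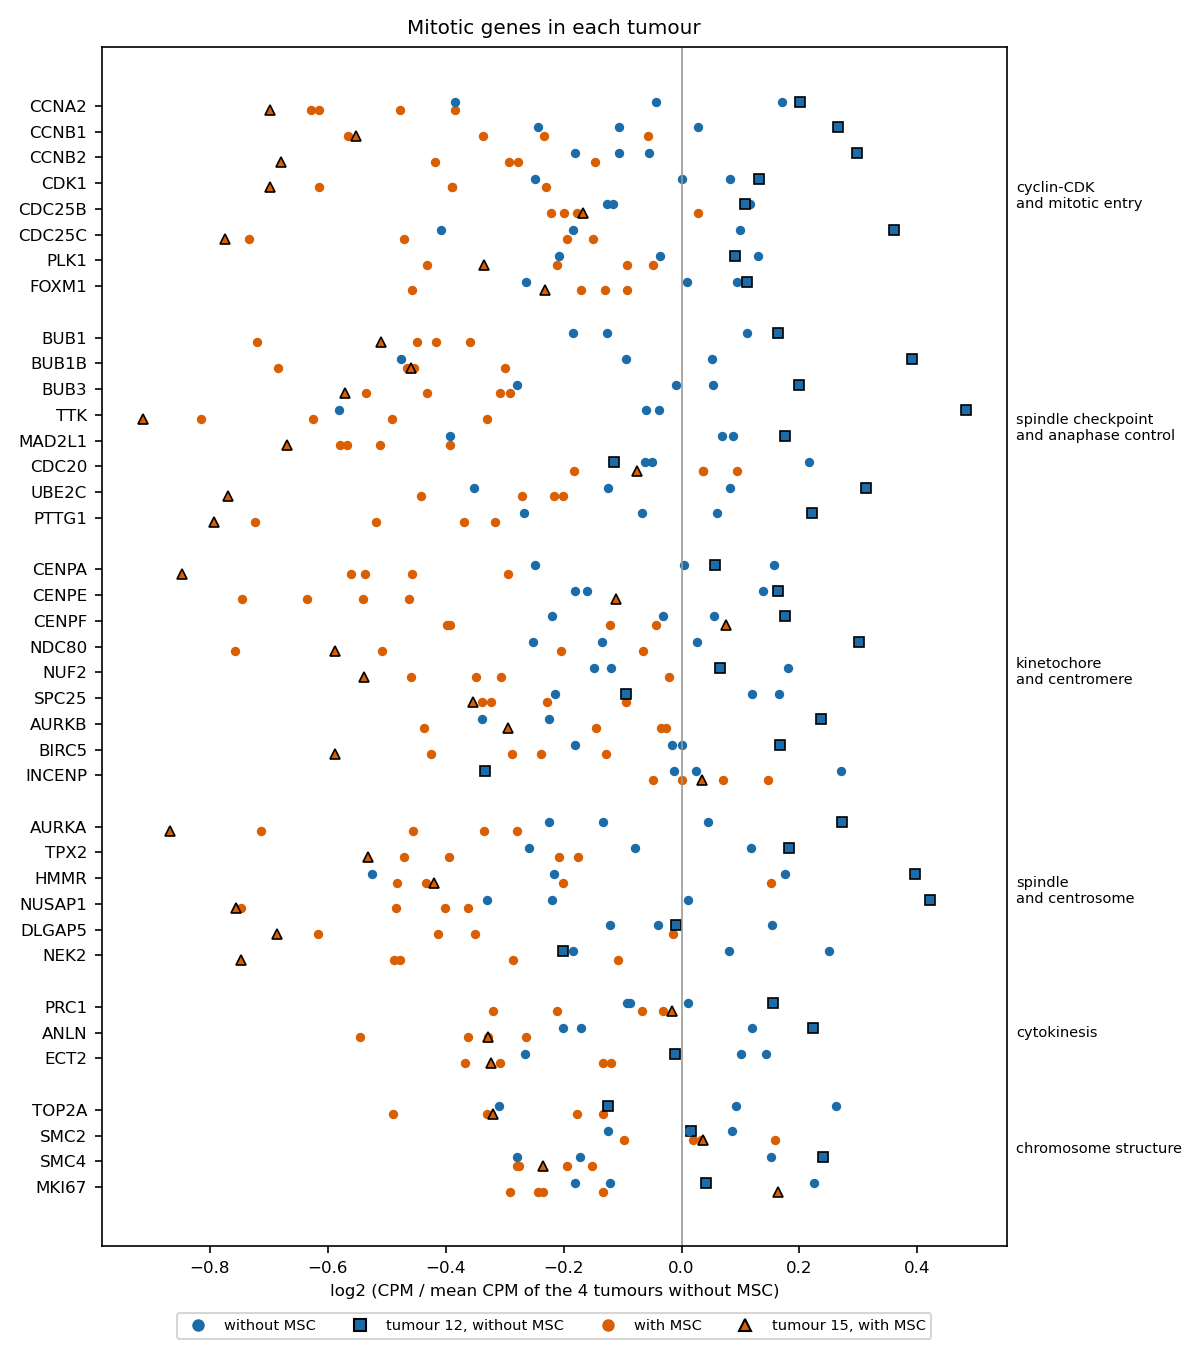
Level of each member in each of the 9 tumours, as log2 of its CPM over the mean CPM of the 4 tumours without MSC; circles are tumours, with tumour 12 (square, without MSC) and tumour 15 (triangle, with MSC) marked. The square is the rightmost point in 24 of the 38 rows and the triangle the leftmost in 18, and in the row of CDC20 the groups are mixed.

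Of the 9 kinetochore and centromere genes, CENPA fell and 8 did not pass. CENPA, the histone H3 variant that marks the centromere, was at 92.9, 83.5, 86.6 and 70.1 CPM without MSC and at 67.9, 60.7, 57.4, 56.5 and 46.3 CPM with MSC. The lowest tumour without MSC, tumour 13, lay just above tumour 1. The change was -0.53 ± 0.12 (edgeR adjusted p = 0.0117) and moved little without tumour 12, to -0.51 (adjusted p = 0.0435), where it had the smallest adjusted p of the members. The kinetochore motor CENPE, at 17.6, 14.1, 17.9 and 14.3 CPM without and 9.54, 11.6, 10.99, 10.3 and 14.8 CPM with MSC, had a change of -0.48 ± 0.15 and missed the threshold (edgeR adjusted p = 0.0546). For CENPF, a protein of the outer kinetochore, the change was -0.16 ± 0.12 (adjusted p = 0.443).

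The 3 members from the NDC80 complex, which holds microtubule ends at the kinetochore, had changes of -0.40 ± 0.14 (NDC80), -0.32 ± 0.12 (NUF2) and -0.27 ± 0.12 (SPC25), with edgeR adjusted p = 0.0873, 0.0952 and 0.185. In each of the 3 the groups overlapped, and NDC80 was highest in tumour 12. The chromosomal passenger complex, which corrects wrong attachments, was uneven, with log2 changes of -0.32 ± 0.11 for BIRC5 (survivin), -0.18 ± 0.13 for the kinase AURKB and 0.04 ± 0.14 for the scaffold INCENP (edgeR adjusted p = 0.0773, 0.415 and 0.899). INCENP was at 12.3, 11.998, 9.60 and 14.6 CPM without MSC and at 13.4, 12.7, 12.1, 11.7 and 12.4 CPM with MSC, and its level in tumour 12 was the lowest of all 9. It was the member with the highest log2 change, and that change was -0.06 without tumour 12.

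Of the 6 spindle and centrosome genes, AURKA and NUSAP1 fell. AURKA (Aurora A), the kinase of centrosomes and spindle poles, was at 164, 145, 192 and 136 CPM without MSC and at 131, 116, 126, 96.96 and 87.1 CPM with MSC. Tumours 10 and 15 were the lowest, and tumour 13 lay just above tumour 1. NUSAP1, which bundles spindle microtubules, was at 128, 109, 170.1 and 101 CPM without and 96.2, 90.8, 98.8, 75.7 and 75.2 CPM with MSC, with tumour 12 far above the rest. The changes were -0.51 ± 0.13 and -0.54 ± 0.14 (edgeR adjusted p = 0.0204 and 0.0217). Without tumour 12 they were -0.42 and -0.37 (adjusted p = 0.103 and 0.117).

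The other 4 spindle genes did not pass. The log2 change was -0.35 ± 0.11 for TPX2, the activator of AURKA, -0.40 ± 0.12 for DLGAP5 (HURP), which stabilises kinetochore fibres, and -0.41 ± 0.14 for the centrosome kinase NEK2 (edgeR adjusted p = 0.0594, 0.0546 and 0.0666). DESeq2 called all 3 of these. For DLGAP5 and NEK2 tumour 12 was not the highest, and without it their changes were -0.40 and -0.47. HMMR, a spindle and hyaluronan-binding protein with few counts per tumour, had a change of -0.25 ± 0.22 (edgeR adjusted p = 0.508), the widest SE of the members.

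ANLN was the 1 of 3 cytokinesis genes that fell. ANLN (anillin), the scaffold of the cleavage furrow, was at 176, 141, 189 and 144 CPM without MSC and at 129, 126, 111, 135 and 129 CPM with MSC. The groups did not overlap, but tumours 11 and 13 lay close to tumour 10. Its change was -0.37 ± 0.11 (edgeR adjusted p = 0.0437), and -0.29 without tumour 12 (adjusted p = 0.179). ECT2, the exchange factor that activates RHOA at the furrow, and PRC1, which bundles midzone microtubules, had changes of -0.24 ± 0.11 and -0.12 ± 0.10 (edgeR adjusted p = 0.160 and 0.488).

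None of the 4 genes of chromosome structure and proliferation passed edgeR, DESeq2 or limma-voom. TOP2A alone was lower at an unadjusted p under 0.05 by edgeR, as were 1586 of all 13458 genes tested. MKI67 (Ki-67), the common histological marker of proliferation, was at 59.3, 75.4, 66.4 and 56.9 CPM without MSC and at 52.7, 54.5, 54.8, 58.8 and 72.2 CPM with MSC. Tumour 15, the lowest tumour for many mitotic genes, had more MKI67 than every tumour but tumour 11. The log2 change was -0.14 ± 0.12 for MKI67 and -0.28 ± 0.12 for TOP2A, the topoisomerase that untangles chromatids (edgeR adjusted p = 0.5002 and 0.136). The condensin ATPases SMC2 and SMC4 work as a pair. SMC2 was at 36.1, 31.2, 34.4 and 34.3 CPM without and 31.8, 34.8, 37.96, 34.5 and 34.9 CPM with MSC, and SMC4 at 111, 88.7, 118 and 82.3 CPM without and 89.9, 82.3, 87.3, 82.5 and 84.9 CPM with MSC. SMC2 was mixed between the groups, with a change of 0.03 ± 0.11, and that of SMC4 was -0.23 ± 0.11 (edgeR adjusted p = 0.886 and 0.212).

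**Figure D4:**
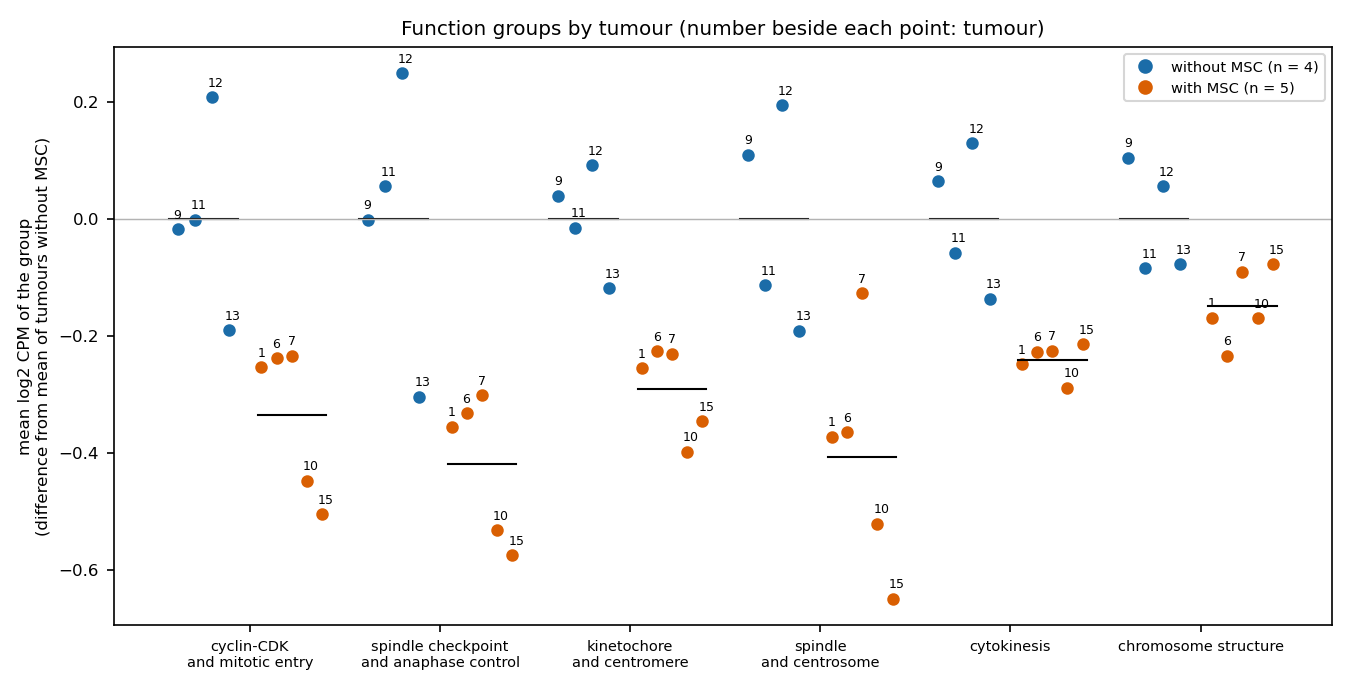
Mean log2 CPM of the members of each function group in each tumour, as a difference from the mean of the 4 tumours without MSC; points are tumours, numbered, and short lines are group means. For checkpoint genes the tumours with MSC lie between -0.58 and -0.30, and tumour 13 without MSC, at -0.30, lies level with the highest of them.

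Averaged over the 38 members, log2 levels relative to the mean of the tumours without MSC were 0.04, -0.02, 0.17 and -0.18 in tumours 9, 11, 12 and 13. With MSC they were -0.29, -0.27, -0.21, -0.42 and -0.44 in tumours 1, 6, 7, 10 and 15. Tumour 13 was the lowest tumour without MSC for 24 members and lay close to tumour 7, so the groups were separated by a narrow margin. Tumour 15 was lowest in the spindle group (-0.65) and the highest with MSC in chromosome structure (-0.08). Between tumours of a group, the median coefficient of variation of the members was 13.8% without MSC and 11.97% with MSC, against 16.9% and 13.8% over all genes tested.

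Genes around the members were described from lists of related genes. Of 12 mitotic kinesins 6 were lower, of 32 other kinetochore and centromere genes 7, of 24 other mitotic and spindle genes 7, and of 22 S phase genes 5, with 0 higher by edgeR in each, against 3.60% of all genes lower. At an unadjusted p under 0.05, the counts higher were 1, 0, 0 and 1, against 1719 of all 13458 genes tested. DESeq2 and limma-voom called none higher. The medians were -0.33, -0.30, -0.33 and -0.25. Without tumour 12 the counts lower were 1, 2, 2 and 0, against 0.690% of all genes. At an unadjusted p under 0.05, 8 S phase genes were lower in that fit, against 1097 of the 13458 genes tested on all tumours.

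The kinesin KIF20A, of the central spindle, was at 74.5, 75.8, 102 and 62.95 CPM without MSC and at 49.7, 47.2, 53.2, 43.4 and 45.7 CPM with MSC, with no overlap. It changed by -0.72 ± 0.12 (edgeR adjusted p = 0.00329) and passed without tumour 12 (-0.58, adjusted p = 0.0150). KIF2C, which depolymerises microtubules at centromeres, KIF18A, which aligns chromosomes, and KIF11, which separates the spindle poles, changed by -0.58 ± 0.13, -0.53 ± 0.13 and -0.43 ± 0.11 (edgeR adjusted p = 0.0134, 0.0213 and 0.0219), and did not pass without tumour 12.

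HJURP and MIS18A, which load CENPA onto centromeres, fell as CENPA did. HJURP, the chaperone of CENPA, was at 75.3, 82.3, 114 and 63.99 CPM without MSC and at 49.6, 54.1, 53.8, 48.7 and 50.3 CPM with MSC, again without overlap. HJURP changed by -0.71 ± 0.13 and MIS18A, of the complex that licenses loading, by -0.43 ± 0.11 (edgeR adjusted p = 0.00483 and 0.0213). MLF1IP (CENP-U), a subunit of the inner kinetochore, changed by -0.73 ± 0.13 and CDCA8 (borealin), of the passenger complex, by -0.46 ± 0.11. Without tumour 12, HJURP and MLF1IP passed (adjusted p = 0.0222 and 0.0222) and MIS18A and CDCA8 did not (0.0599 and 0.0888).

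Among other mitotic genes, STMN1 (stathmin), which destabilises microtubules and is regulated by phosphorylation in mitosis, was at 2189, 2336, 2779 and 1510.0 CPM without MSC and at 1254, 1447, 1351, 1273 and 1197 CPM with MSC, a change of -0.76 ± 0.14 (edgeR adjusted p = 0.00590). Tumour 13 was the lowest without MSC there too, and tumour 12 the highest. The mitotic kinase PBK changed by -0.61 ± 0.12, the ubiquitin-conjugating enzyme UBE2T by -0.54 ± 0.12 and the phosphatase CDKN3 by -0.51 ± 0.12 (edgeR adjusted p = 0.00621, 0.0126 and 0.0156). UBE2T was counted in this list although it is not a spindle protein. STMN1 and PBK passed without tumour 12 (adjusted p = 0.0376 and 0.0322), and UBE2T and CDKN3 did not. In the S phase list RRM1, a subunit of ribonucleotide reductase, the clamp PCNA, the helicase subunit MCM6 and DTL, of a replication-coupled ubiquitin ligase, were among the 5 genes that fell. None of the list passed without tumour 12. These 4 did not pass after the GC and length correction, where 3 other genes of the list were called lower, against 3.67% of all genes.

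The anaphase promoting complex and the condensin and cohesin genes had medians nearer 0. Of 15 subunits and regulators of the anaphase promoting complex 3 were lower (ANAPC13, CDC27 and ANAPC10, with changes of -0.53 ± 0.10, -0.35 ± 0.10 and -0.41 ± 0.12), and the list's median was -0.08. Of 15 condensin and cohesin genes 2 were lower, the condensin subunit NCAPG (-0.64 ± 0.12) and the cohesin regulator PDS5B (-0.52 ± 0.16), with a median of -0.17. Of all genes tested 3.60% were lower. ANAPC13 and NCAPG passed without tumour 12 (edgeR adjusted p = 0.0229 and 0.0312), and CDC27, ANAPC10 and PDS5B did not, nor after the GC and length correction. The MuvB and pocket protein complexes switch late cell cycle promoters off and on. Of their 12 genes, edgeR, DESeq2 and limma-voom called 0 in either direction. By edgeR 3.60% of all genes tested were lower and 4.18% higher. In the list 1 was higher at an unadjusted p under 0.05, against 1719 of all 13458 genes tested, and the median was 0.04. Of 12 tested brakes on CDK1 and of cell cycle exit 1 was called higher, against 4.18% of all genes tested. This was GADD45B, a stress-induced inhibitor of CDK1, at 62.6 ± 7.38 CPM (SD, n = 4) without MSC and 88.1 ± 14.4 CPM (n = 5) with MSC. Its change of 0.49 ± 0.12 (edgeR adjusted p = 0.0217) did not pass without tumour 12 (adjusted p = 0.1002) or by limma-voom. None of the brakes was called lower by edgeR, DESeq2 or limma-voom. At an unadjusted p under 0.05, 1 was lower by edgeR, against 1586 of all 13458 genes tested.

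**Figure D5:**
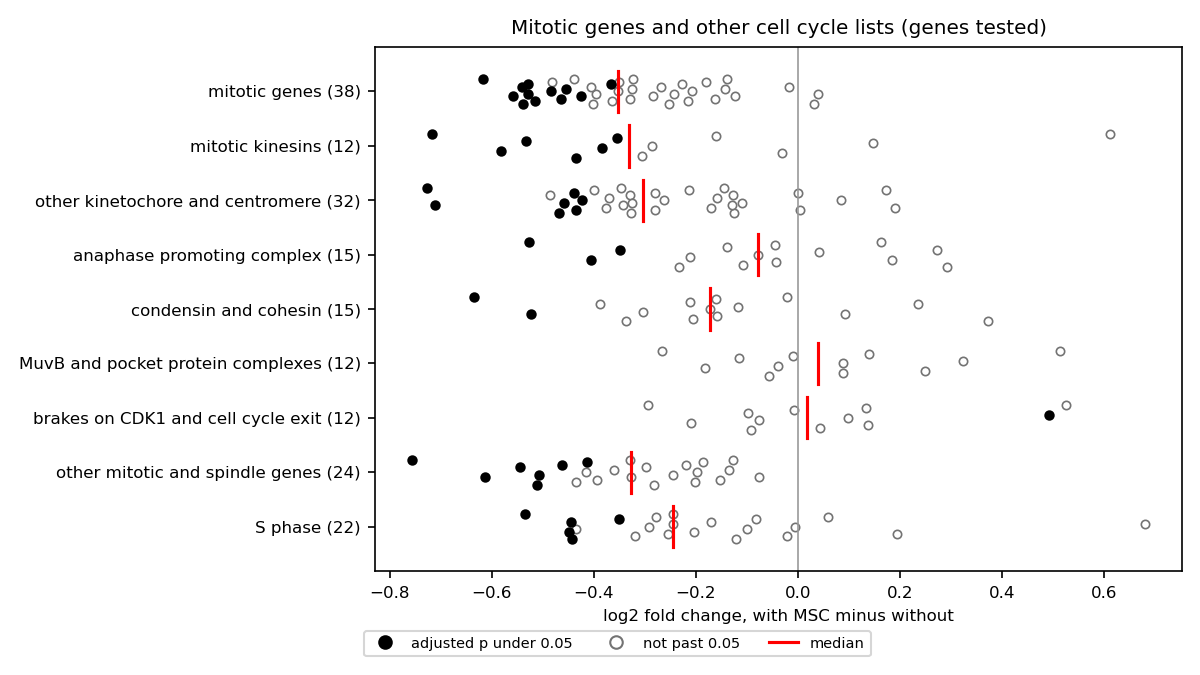
Log2 fold change, with MSC minus without, of the 38 members (top row) and of the tested genes of 8 related lists; each circle is a gene, filled where the adjusted p is under 0.05, and red lines are medians. The medians of the members, kinesins, other kinetochore genes and other mitotic genes lie between -0.35 and -0.30, and those of the MuvB complexes and of the brakes at 0.04 and 0.02.

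Human genes that mark other cells a tumour can hold were measured in the same libraries. The hosts were mice and the reads were aligned to the human build hg19, so these sums are no measure of host cells. The summed level of 14 fibroblast and MSC genes was 559 to 706 CPM without MSC and 640.3 to 891 CPM with MSC. Most of each sum was NT5E, at 461 to 602 CPM in the tumours without MSC and 532 to 675 CPM in those with MSC. COL1A1, COL5A1, COL6A3, PDGFRB, FAP and ENG were above 1 CPM in every tumour of both groups. COL1A2 was at 0.528 to 8.45 CPM and COL3A1 at 0 to 21.2 CPM, both highest in tumour 15. PDGFRA, THY1, LUM, DCN and POSTN were at 0 or under 1 CPM, except LUM (2.83 CPM) and DCN (18.9 CPM) in tumour 15. In the other tumours DCN was at most 0.207 CPM. Without tumour 15, edgeR called 10 members lower (2.26% of all genes were lower) and the median change over the 38 was -0.28. Of the 9 fibroblast genes tested 1 was called, COL1A2, higher with MSC. Of all genes tested 4.18% were called higher and 3.60% lower. The 8 endothelial genes summed to 8.61 to 10.9 CPM without MSC and 5.16 to 7.29 with MSC, mostly PECAM1, the 1 of 2 tested that was called (lower), with KDR at 0.806 to 1.51 CPM and the other 6 at 0 or under 1 CPM.

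The 8 leukocyte genes summed to 96.1 to 139 CPM without MSC and 139.6 to 209 with MSC, mostly CD68, the 1 of 4 tested that was called (higher), with CD3E, ITGAM and AIF1 at 0 or under 1 CPM. Of the others, CSF1R was at 1.82 to 6.47 CPM and LYZ at 0.564 to 2.85 CPM over all tumours, CD14 at up to 1.20 CPM, and PTPRC was under 1 CPM except in tumour 1 (3.58 CPM). The 5 adipocyte genes, none of which reached the filter, summed to 0.29 to 0.752 CPM without MSC and 0.262 to 4.03 CPM with MSC, and to at most 0.574 outside tumour 15 there. The 7 genes listed for MDA-MB-231 summed to 8766 to 10169 CPM without MSC and to 9339 to 15143 with MSC. Of these, 3 were called higher (CD44, EGFR and AXL), against 4.18% of all genes tested. Whether these genes separate the line from MSC, also human, was not tested. Of 5 luminal breast genes, ESR1, PGR and FOXA1 were at 0 or under 1 CPM in every tumour, while ERBB2 was at 17.8 to 36.2 CPM and GATA3 at 3.73 to 9.89 CPM, and neither passed. Single markers named here, other than DCN, were chosen after their values were seen. The part of these lists in the mitotic result was not tested.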

How the data were processed

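Polysome-associated RNA from 9 tumours, 5 with MSC and 4 without, was sequenced. The deposited files hold raw counts per gene symbol. Per the submitters' processing notes, CASAVA 1.8.1, TopHat 1.4.0, HTSeq and the build hg19 were used. The sources used here do not give the annotation, the use of strand or any removal of mouse reads, so mouse RNA and reads of overlapping or near-identical genes can add to a count. Lines for reads assigned to no gene (10.2 to 12.1% of counts) were left out. Gene counts per library were 24616792 to 65275226. No pair of libraries within a group agreed within sampling noise (smallest chi-square per degree of freedom 23.2). The labels name no batch, and the groups share no replicate number.

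Counts were analysed in R 4.3.3 with edgeR 4.0.16 (filterByExpr, TMM, robust glmQLFit, Benjamini-Hochberg adjustment over all genes tested, threshold 0.05). The fit was also run on simulated data, but recovery was required there only of changes far larger than those of the members. CPM used TMM factors. Alternatives were other scalings, no filter or 5 CPM in 4 libraries, DESeq2 1.42.0, limma 3.58.1 with voom weights, each tumour left out, and tumours 12 and 15 left out together. The correction for GC content and length (splines with 4 degrees of freedom, GENCODE transcripts matched by symbol to 95.3% of genes) was added after seeing the data. Promoters came from RefSeq (GRCh38.p14). The members and lists were chosen with earlier results of these data known. All 38 members are named, and of each related list up to 4 called genes of smallest p.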

Additional observations from a re-analysis of the deposited data

Results flagged for a closer look

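In 1 of 76 groups of tumours tested for a sample far from the others (38 members, each in both conditions), a tumour stood apart. Tumour 6 had 158 CPM of CDC25B, the CDK1-activating phosphatase, against at most 138 CPM in the other tumours with MSC. Chance alone marks about 1 in 20 such groups.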

How the results depend on the processing

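The count of mitotic genes lower with MSC was 3 to 20 with each tumour left out in turn, 0 without tumours 12 and 15 together, and 7 after the GC and length correction. It was 11 to 17 under the other alternatives, and no member was called higher under any of the 18 alternatives. The median change was between -0.39 and -0.25 under all of them. The GC and length correction turned the split of all genes from 484 lower and 563 higher to 494 and 343. GC-rich members then had more negative changes (FOXM1 -0.37, PLK1 -0.35). The cause of these differences was not tested. Near 0, signs turned: with a tumour left out, CDC20 ranged from -0.058 to 0.066, SMC2 from -0.002 to 0.063 and INCENP from -0.059 to 0.140. INCENP was -0.013 with limma-voom, -0.056 without tumours 12 and 15, and -0.186 after the correction. No paired analysis was possible because the groups share no replicate numbers. The median SE of a member was 0.118.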
